A study of Mus musculus with 9 samples.

Results

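The genes described here are 10 mitochondrial chaperones and proteases, Hspd1, Hspe1, Hspa9, Dnaja3, Trap1, Lonp1, Clpp, Clpx, Yme1l1 and Afg3l2, chosen by name as members of the mitochondrial unfolded protein response. The rule used no measured value. The members are 10 of 32285 gene rows in the deposited table of normalized counts, and all 10 are among the 12100 genes tested, those whose mean over the libraries reached 10 normalized counts. The table comes from RNA sequencing (RNA-seq) of whole liver, with 3 libraries of each of 3 groups, and the depth recovered from it was 7426136 to 12183041 reads on genes per library. All mice, controls included, were of the Tet-OFF line and had received tamoxifen. They carry a piggyBac transgene with CreERT2 under the ubiquitous CAG promoter, a tTA allele behind a loxP-flanked stop at Rosa26, and a tetO allele for Venus and mCherry also at Rosa26. Tamoxifen releases tTA, which drives the fluorescent reporters until a tetracycline drug stops it, so a response to either drug and the loss of the reporters cannot be told apart in these groups. The Dox group drank doxycycline hyclate, and the Tc group tetracycline hydrochloride, each at 2 mg/mL in water with 10 mg/mL sucrose for 7 days from 4 weeks of age. The control group received tamoxifen and neither drug, and whether its water held sucrose is not given in the sources used here. The study describes the libraries of a group as biological replicates.

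Most mitochondrial proteins are made in the cytosol and folded after import, by the mitochondrial Hsp70 and then by the Hsp60 and Hsp10 chaperonin, while ATP-dependent proteases in the matrix and inner membrane remove chains that fail to fold or to find partners. When mitochondrial translation is disturbed, as tetracyclines can do through the mitochondrial ribosome, nuclear genes for these chaperones and proteases are known to be induced in mammalian cells, a response tied to the transcription factors ATF4, ATF5 and CHOP (the product of Ddit3) and, for the chaperonin, to HSF1. Liver is rich in mitochondria, and the comparison asks how the transcripts of this machinery stood after each drug.

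The chaperonin genes are the classic reporters of this response, because Hspd1 and Hspe1 lie head to head on mouse chromosome 1 and share a promoter. The stretches below, from RefSeq on GRCm38.p6, the + strand, show the matches found between or beside their starts: in the first, capitals mark the 6 letters TGCAAT searched as the CHOP motif (chr1:55087937-55087966), and in the second, 2 units of TTCNNGAA that overlap a unit of GAANNTTC, the repeats of a heat shock element (chr1:55088055-55088084).
CHOP-type match: acgccggggcccTGCAATctgcatgcggcg
Heat shock element: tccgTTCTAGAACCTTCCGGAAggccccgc
The sequence before Clpx is shown because Clpx was the member with the widest differences between libraries (chr9:65294010-65294259, GRCm38.p6, the + strand, RefSeq). Its 250 bases end just before the gene's first base, and capitals mark GCATGCGC, searched as the NRF1 motif, NRF1 being a regulator of nuclear genes for mitochondria.
Clpx upstream: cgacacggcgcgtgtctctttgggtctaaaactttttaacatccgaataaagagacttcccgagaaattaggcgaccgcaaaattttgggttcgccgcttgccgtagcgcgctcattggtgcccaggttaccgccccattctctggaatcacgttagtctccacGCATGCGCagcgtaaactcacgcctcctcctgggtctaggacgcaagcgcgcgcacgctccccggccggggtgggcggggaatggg
All motifs were searched on both strands, from 250 bases before to 50 bases after each start. TTCNNGAA was found in 8.52% of 32851 such windows and, among 8 members with a window, in those of Hspd1, Hspe1 and Clpp, while GAANNTTC (7.86% of windows) and TGCAAT (8.402%) were found in those of Hspd1 and Hspe1, which cover much the same bases. GCATGCGC (2.712% of windows) was found in that of Clpx, and TGATGNAA, searched for ATF4 (3.969% of windows), in none of the 8. A match is only a match of letters.

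By the GENCODE vM21 annotation of GRCm38, Hspd1 (ENSMUSG00000025980) spans chr1:55077835-55088243 and Hspe1 (ENSMUSG00000073676) chr1:55088132-55091307. Hspa9 (ENSMUSG00000024359, chr18:34937414-34954357) and Afg3l2 (ENSMUSG00000024527, chr18:67404764-67449172) share chromosome 18, and Trap1 (ENSMUSG00000005981, chr16:4039971-4077827) and Dnaja3 (ENSMUSG00000004069, chr16:4639989-4707695) chromosome 16. Both Lonp1 (ENSMUSG00000041168, chr17:56614297-56626887) and Clpp (ENSMUSG00000002660, chr17:56990305-56996188) lie on chromosome 17. Clpx (ENSMUSG00000015357) spans chr9:65294260-65330658 and Yme1l1 (ENSMUSG00000026775) chr2:23156369-23199260.

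Before the members' values, 1 feature of the libraries bears on every test. Among genes that differed over 2-fold between libraries 1 and 2 of a group, with a mean of 50 or more, the value of library 3 fell in between in control for 220 of 223, in Dox for 2986 of 3003 and in Tc for 482 of 486 (98.7%, 99.4% and 99.2%). Libraries 3 may thus not be independent. Without them limma called 0 genes in each of the 3 comparisons, also at the adjusted p alone, so no limma call or pass given here holds in that smaller fit, and values without them are given beside the main ones. Library Dox 2 stood far from Dox 1, with a median distance of 0.698 on the log2 scale over all genes tested, against 0.219 between the same libraries of control and 0.257 of Tc. The liver label was checked against markers of hepatocytes, which were present in every library, with a summed level over 6 genes of 1169006.7 to 1656788.0 normalized counts in control, 364041.6 to 905989.1 in Dox and 893494.2 to 1364190.9 in Tc. Alb made up most of each sum, with 956160.4 to 1408836.3 in control and 255547.5 to 607452.5 in Dox. Of the 6 markers only Alb was lower in Dox without overlap, where 17.1% of all genes were, and 0 were higher. The sums thus mainly follow Alb. In whole tissue, fewer cells of a type and less RNA per cell cannot be told apart. A gene was called at an adjusted p under 0.05 (limma, Benjamini-Hochberg over all 12100 genes) and a fold change over 2.

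**Figure D1:**
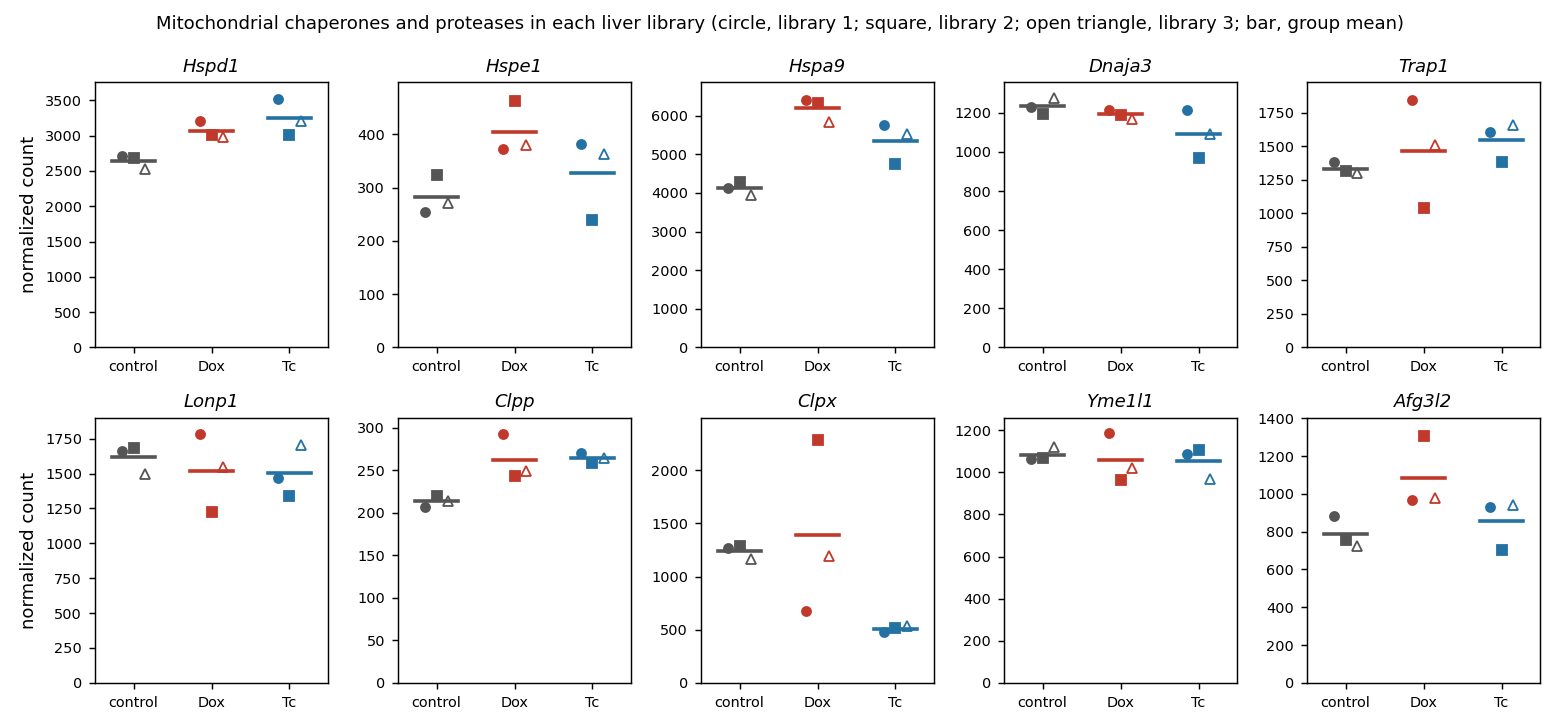
Normalized counts (linear axes from 0) of the 10 genes in each of 9 liver libraries, by group, with a bar at the mean of 3 libraries. Hspa9 was higher in all Dox and Tc libraries than in all controls, and Clpx lay at 480.4 to 536.5 in Tc but from 680.2 to 2285.6 in Dox.

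Levels per kilobase of exon spanned a wide range among the members, and the chaperones Hspa9 and Hspd1 were the most abundant. In control, Hspa9 had 1295 to 1406 normalized counts per kilobase and Hspd1 954.7 to 1026, followed by Trap1 and Lonp1, whose ranges overlapped (559.0 to 595.9 and 508.4 to 569.6). Dnaja3 stood at a mean of 466.4, and below it Clpx and Hspe1 overlapped (402.6 to 445.7 and 328.2 to 418.3), as did Afg3l2 and Yme1l1 (233.8 to 285.7 and 225.8 to 238.0), with Clpp lowest at a mean of 217.1. In Dox the first 3 places by mean were the same, but the range of Clpx (235.7 to 792.0) took in values of every other member except Hspa9 and Hspd1. In Tc, Clpx moved to the last place, at a mean of 177.0 per kilobase, under Yme1l1 at 223.9, and the libraries of these genes did not overlap (166.5 to 185.9 against 205.6 to 235.2).

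With Dox, 1 folding gene, Hspa9, passed the adjusted p, and 4 other members, Hspd1, Hspe1, Clpp and Afg3l2, had every Dox library above every control. Hspa9, the mitochondrial Hsp70 that pulls proteins in and begins their folding, had 4118.7, 4285.4 and 3948.9 normalized counts in control libraries 1 to 3 and 6412.7, 6327.8 and 5833.0 in those of Dox. All Dox libraries were above all controls, and the Dox mean was 1.5 times that of control, with little spread among Dox libraries. Hspa9 rose by 0.59 on the log2(normalized count + 1) scale (95% interval 0.27 to 0.90, SE 0.14, n = 3 and 3, limma adjusted p = 0.0374), the only member past an adjusted p of 0.05, and under the 2-fold limit. The difference was 0.60 without libraries 3, where limma gave an adjusted p of 0.579 and DESeq2 0.465. With all libraries DESeq2 gave 4.6e-05 and edgeR 0.0458, and leaving out 1 library moved the limma adjusted p from 0.0204 (without Dox 2) to 0.148 (without control 3).

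The chaperonin genes moved less. Hspd1, which encodes the Hsp60 ring, had 2711.9, 2680.6 and 2522.4 normalized counts in control and 3207.4, 3013.8 and 2981.6 in Dox. These groups did not overlap, yet the difference was small, 0.22 on the log2 scale (interval -0.06 to 0.49, limma adjusted p = 0.268). Hspe1, which encodes the Hsp10 lid of the ring, had 254.0, 323.8 and 270.8 in control and 372.8, 462.4 and 379.2 in Dox. Dox was again higher in every library, by 0.52 (interval 0.06 to 0.97, limma adjusted p = 0.135). Counts of this pair carry extra doubt, because 26.58% of the 86-base windows of Hspd1 transcripts and 22.06% of those of Hspe1 occur in other genes as well. For the other 8 members the share was 0%. By symbol, 5 pseudogenes of Hspd1 and 6 of Hspe1 are annotated, and whether the shared windows lie in them was not tested. The gene models of the pair also share 112 bases on opposite strands, with the strand setting of the counting not given in the sources used here.

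The remaining folding genes overlapped between Dox and control. Dnaja3, the J-protein partner of mitochondrial Hsp70, had 1166.6 to 1217.2 normalized counts in Dox against 1195.2 to 1276.5 in control, a difference of -0.05 (interval -0.32 to 0.22). Trap1, the mitochondrial Hsp90, had 1840.6, 1037.6 and 1504.4 in Dox against 1296.8 to 1382.4 in control, so that Dox 2 lay below all controls and both other Dox libraries above them.

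Among the matrix proteases, Clpp, the barrel-shaped peptidase of the ClpXP protease, had 206.4, 220.3 and 213.6 normalized counts in control and 292.7, 243.9 and 249.0 in Dox. Its groups did not overlap, with a difference of 0.29 (interval 0.02 to 0.56, limma adjusted p = 0.145). Lonp1, the Lon protease that degrades oxidized and misfolded matrix proteins, had 1781.6, 1221.6 and 1545.8 in Dox against 1500.2 to 1680.9 in control, a difference of -0.11 (interval -0.48 to 0.27). Clpx, the unfoldase that feeds Clpp, had 1270.2, 1286.3 and 1162.0 in control and 680.2, 2285.6 and 1196.5 in Dox. Dox 1 was far below, Dox 2 far above and Dox 3 within the control range, and the difference of -0.01 (interval -0.83 to 0.81) turned to 0.42 without Dox 1 and to -0.46 without Dox 2. DESeq2, which averages on the count scale, gave 0.16.

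In the inner membrane, Afg3l2, the m-AAA protease that faces the matrix, had 883.9, 758.2 and 723.4 normalized counts in control and 967.7, 1305.6 and 979.2 in Dox. Dox was higher in every library, by 0.45 (interval 0.05 to 0.85, limma adjusted p = 0.134). Yme1l1, the i-AAA protease that faces the intermembrane space, overlapped, at 962.8 to 1187.8 in Dox and 1062.8 to 1120.1 in control.

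Across the 10 members, limma called 0 with Dox at both thresholds, where it called 5% of all genes tested (138 higher and 467 lower, or 247 and 325 with the same total per library). Leaving out 1 library moved these counts over a range from 8 and 24 without control 3 to 663 and 848 without Dox 1. At the adjusted p alone it passed 1, Hspa9, beside 8.41% of all genes, and at an unadjusted p under 0.05 it passed 4, Hspa9, Hspe1, Clpp and Afg3l2, beside 29.1% of all genes. DESeq2 called 0 at both thresholds, beside 6.18% of the genes it tested, and edgeR called 0. Without overlap, 5 members were higher in Dox, where 16.1% of all genes were, and 0 lower, where 17.1% were. Their median log2 fold change was 0.156, against 0.0001 over all genes, and 0.12 without libraries 3. Scaling each library to the same total moved the median of all genes with Dox to 0.174, and that of the members to 0.330.

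**Figure D2:**
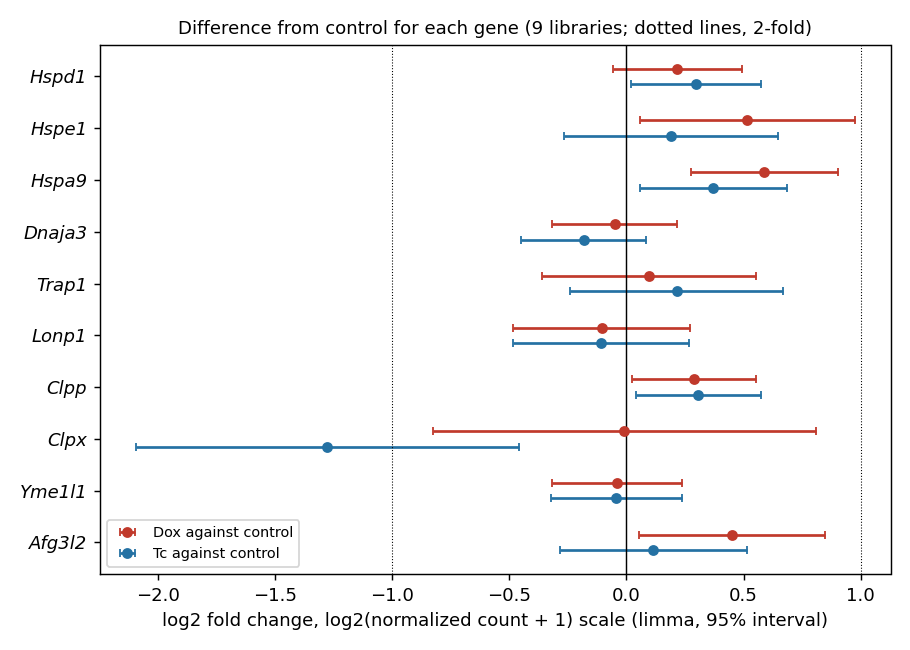
Log2 fold change against control with its 95% interval (limma, 9 libraries) for each of the 10 genes, Dox and Tc shown apart, with dotted lines at 2-fold. Hspa9 with Dox (0.59) has the interval farthest above 0, and Clpx with Tc (-1.28) is the only value beyond the 2-fold lines.

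With Tc, the most visible difference was a low Clpx. Its 480.4, 515.3 and 536.5 normalized counts in Tc libraries 1 to 3 were all below the lowest control, 1162.0, at a ratio of means of 0.41. The Tc libraries lay close together, with a mean of 510.7 ± 28.3 (SD, n = 3) against 1240 ± 67.6 (SD, n = 3) in control. The difference was -1.28 on the log2 scale (interval -2.10 to -0.46), and it did not pass in the fit of all 9 libraries, which takes 1 spread for each gene over all groups (limma adjusted p = 0.247, edgeR 0.227). With only the Tc and control libraries in the fit, limma gave an adjusted p of 0.000606, DESeq2 on all libraries gave 0.0379, and without libraries 3 the difference was -1.36 with an adjusted p of 1 by both limma and DESeq2.

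Hspa9 again stood above control, at 5753.6, 4745.4 and 5518.2 normalized counts in Tc. Its libraries did not overlap those of control, with a difference of 0.37 (interval 0.06 to 0.68, limma adjusted p = 0.375), or 0.31 without libraries 3. Hspd1, at 3526.2, 3004.4 and 3205.5, was also above all controls, by 0.30 (interval 0.02 to 0.57, limma adjusted p = 0.406). Clpp, at 270.5, 258.1 and 264.5, was above them by 0.31 (interval 0.04 to 0.57, limma adjusted p = 0.381), so that the peptidase was higher where its unfoldase was lower.

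Hspe1 was less even than its neighbour Hspd1, with 381.8, 238.3 and 363.8 normalized counts in Tc, where library 2 was under every control. The ratio of Hspd1 to Hspe1 counts was 8.28 to 10.68 in control, 6.52 to 8.6 in Dox and 8.81 to 12.61 in Tc. Trap1 (1381.3 to 1659.2), Afg3l2 (704.1 to 940.8), Yme1l1 (967.7 to 1107.0), Lonp1 (1336.3 to 1702.1) and Dnaja3 (971.2 to 1213.8) overlapped control, with differences of 0.21, 0.12, -0.04, -0.11 and -0.18.

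Limma called 0 of the 10 members with Tc at both thresholds and passed 0 at the adjusted p alone, where it called 0.165% and passed 0.182% of all genes. DESeq2 called 1, Clpx, beside 0.982% of the genes it tested, and edgeR called 0. At an unadjusted p under 0.05 limma passed 4, Hspd1, Hspa9, Clpp and Clpx, beside 11.7% of all genes. Without overlap, 3 members were higher in Tc, where 15.8% of all genes were, and 1 lower, where 14.9% were. The median was 0.153, against 0.0036 over all genes, and 0.057 without libraries 3.

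Dox and Tc were given at the same concentration in drinking water and for the same time, and the amount taken in is not given in the sources used here. Both comparisons above share the control libraries, so the drugs were also compared directly, over all 12100 genes. Clpx was higher in Dox than in Tc in every library, although Dox 1 (680.2) lay near the highest Tc library (536.5). The difference was 1.27 (interval 0.45 to 2.09), with an adjusted p of 0.133 by limma, 0.00629 by DESeq2 and 0.102 by edgeR. It was 1.32 without libraries 3 (limma adjusted p = 0.755), 0.82 without Dox 2 (0.0724) and 1.70 without Dox 1 (0.011). Hspa9 and Afg3l2 were also higher in each Dox library than in each Tc library, by 0.22 (interval -0.10 to 0.53) and 0.33 (interval -0.06 to 0.73).

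The other 7 members overlapped between the drugs. The differences of Hspe1 (0.33, interval -0.13 to 0.78) and Dnaja3 (0.13, interval -0.14 to 0.40) were above 0, those of Trap1 (-0.12, interval -0.58 to 0.34) and Hspd1 (-0.08, interval -0.36 to 0.20) below. The intervals of Clpp (-0.28 to 0.25), Lonp1 (-0.38 to 0.38) and Yme1l1 (-0.28 to 0.28) were centred close to 0, and they leave room for differences of that size. Limma called 0 of the 10 at both thresholds and passed 0 at the adjusted p alone, where it called 0.215% and passed 0.231% of all genes. DESeq2 called 1, Clpx, beside 3.21% of the genes it tested, and edgeR called 0. At an unadjusted p under 0.05 limma passed 1, Clpx, beside 21.7% of all genes. Without overlap, 3 members were higher in Dox, where 12.2% of all genes were, and 0 lower, where 12.4% were.

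Clpx and Clpp encode the partners of 1 protease, and their ratio shows how the pair stood in each library. The ratio of Clpx to Clpp normalized counts was 6.15, 5.84 and 5.44 in control libraries 1 to 3, 2.32, 9.37 and 4.81 in Dox, and 1.78, 2.0 and 2.03 in Tc. Tc was below both other groups in every library, and Dox spanned the whole range of control on both sides. Per kilobase, Clpx exceeded Clpp 1.85 to 2.1 times in control, but in Tc it was at 0.6 to 0.69 of Clpp. Over the 9 libraries the log2 values of these genes had a Pearson r of -0.62, a description with no test.

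ClpX is also known to act on ALAS, the first enzyme of heme synthesis, whose liver form is encoded by Alas1, a gene named here after its values were seen. Alas1 had 4639.5, 2863.7 and 4115.4 normalized counts in control, 6826.5, 2357.0 and 5137.9 in Dox, and 13893.8, 11599.6 and 12895.2 in Tc. It was highest in the Tc libraries, where Clpx was lowest, and lowest in Dox 2, where Clpx was highest. Over the 9 libraries r was -0.96. The Tc difference of Alas1 was 1.75 (interval 0.91 to 2.59, limma adjusted p = 0.138, DESeq2 0.000553; 1.80 without libraries 3).

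**Figure D3:**
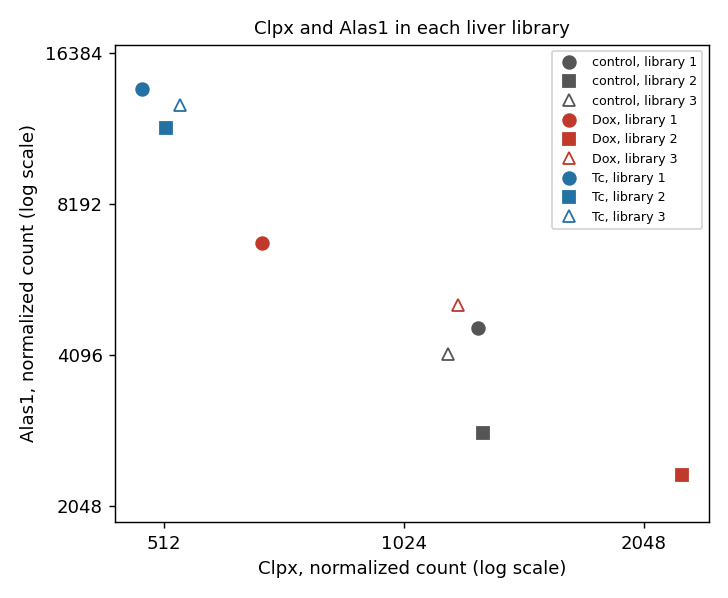
Clpx (x axis) against Alas1 (y axis), normalized counts on log scales, 1 point per liver library, coloured by group and shaped by library number. The 3 Tc points lie at the upper left and Dox 2 (2285.6 and 2357.0) at the lower right, with controls between.

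The genes most like Hspd1 over the 9 libraries, by Pearson r of log2 values among tested genes with a mean of at least 50, were Hsp90aa1 (r = 0.965), Nsd3 (0.959) and Ube4b (0.957), and for Hspa9 with Hspd1 the r was 0.8 and for Hspe1 with Hspd1 0.55. Hsp90aa1, the inducible cytosolic Hsp90, had 209.8 to 260.1 normalized counts in control, 366.9 to 475.9 in Dox and 364.2 to 553.7 in Tc. By the same measure, applied after the values were seen, Clpx was most like Zfp316 (0.995), Asap2 (0.986) and Ddx52 (0.983), and Hspa9 most like Ccdc84 (0.978), Ifrd2 (0.976) and Uqcr10 (0.974), a complex III subunit. Group differences are part of each r, and depth and scaling are shared by the points.

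Within groups, the members' typical distance between libraries was below that of genes at large. The members had at least 206.4 normalized counts in every library, while all genes tested went down to a mean of 10. Genes of like level were not compared, so this is no trait of the members. The median distance between libraries 1 and 2 was 0.051 on the log2 scale over the 10 members in control, 0.306 in Dox and 0.224 in Tc, where all genes had 0.219, 0.698 and 0.257. Hspa9 (0.019) and Dnaja3 (0.031) were the closest in Dox. Clpx (1.747), Trap1 (0.826) and Lonp1 (0.544) were the farthest apart there, with Clpx higher in Dox 2 and the others lower.

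The known regulators did not share 1 direction. Atf5, which activates this response after losing its own import into mitochondria, had 4251.0, 4660.6 and 4152.3 normalized counts in control, 1611.1, 1046.8 and 1478.0 in Dox and 1563.4, 2886.6 and 2301.8 in Tc. All libraries of both drugs were below all controls. Atf5 fell by 1.68 on the log2 scale with Dox (limma adjusted p = 0.0103; without libraries 3, -1.78 with limma 0.558 and DESeq2 0.0227), and its Tc difference was -0.99 (limma adjusted p = 0.185). The 3 other factors shown beside it were picked after their values were seen. Atf4 had 639.2, 1425.2 and 897.4 in Dox against 486.6 to 548.3 in control (difference 0.84, limma adjusted p = 0.0747), Ddit3 28.8 to 47.4 against 18 to 25.7 (0.83, 0.0829) and Hsf1 128.4 to 153.0 against 88.9 to 117.0 (0.39, 0.147). These Dox libraries were above all controls for each of the 3, and in Tc this held for Hsf1 alone, at 123.2 to 151.4. Of all 9 regulators listed, 5 were higher and 1 lower in Dox without overlap, where 16.1% and 17.1% of all genes were. In Tc 2 were higher and 1 lower, where 15.8% and 14.9% of all genes were. For Atf4 with Dox, DESeq2 gave an adjusted p of 0.0158, or 0.477 without libraries 3.

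**Figure D4:**
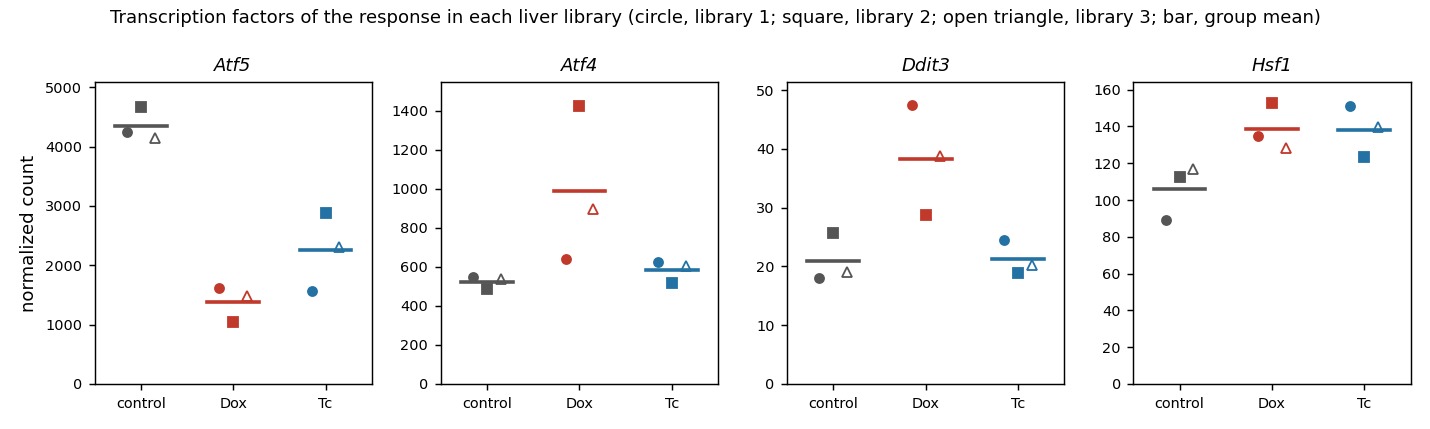
Normalized counts (linear axes from 0) of 4 transcription factor genes in each of 9 liver libraries, with a bar at the mean of 3 libraries. Atf5 reaches at most 2886.6 in the Dox and Tc libraries and at least 4152.3 in control, and Atf4 is highest in Dox 2 (1425.2).

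Of 49 other genes of mitochondrial protein quality control, all tested, limma called 1 with Dox, Atf5, where it called 5% of all genes. At the adjusted p alone it also passed Timm9, an intermembrane space import chaperone named after its values were seen, where 8.41% of all genes passed. Timm9 had 97.4, 83.2 and 94.1 normalized counts in control and 181.1, 185.2 and 171.6 in Dox (difference 0.96, limma adjusted p = 0.0163, and 1.02 and 0.558 without libraries 3). Without overlap 15 of the 49 were higher and 1 lower in Dox, where 16.1% and 17.1% of all genes were, and 12 higher and 3 lower in Tc, where 15.8% and 14.9% were, with medians of 0.13 and 0.122, near those of the 10 members. With Tc limma called 0 of the 49, DESeq2 0 and edgeR 0, and 4 passed at an unadjusted p under 0.05, where 11.7% of all genes did.

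By role, the nucleotide exchange factor of Hspa9, Grpel1, had 1001.4 to 1488.5 normalized counts in Dox against 896.3 to 940.0 in control, and its stress-linked paralog Grpel2 528.7 to 663.7 against 297.3 to 437.2 (differences 0.37 and 0.63, limma adjusted p = 0.147 and 0.0541). The other proteases centred on 0 with Dox (median -0.011 over 14, 0 without overlap) and on 0.191 with Tc. With the same total per library their Dox median was 0.162, where that of all genes was 0.174. Pmpcb, a subunit of the presequence-cleaving peptidase, was the most abundant (-0.39 with Dox, limma adjusted p = 0.206) and Atp23 the farthest from 0 (-0.55, 0.390). Of the prohibitins, a scaffold of the m-AAA protease, Phb was above all controls in Dox (306.2 to 314.8 against 203.4 to 282.2), while Phb2 overlapped (1554.2 to 2141.9 against 1487.2 to 1610.0). Of 13 import genes 5 were higher and 0 lower in Dox without overlap, where 16.1% and 17.1% of all genes were. Among the 5 was Tomm40, the pore of the outer membrane, at 364.3, 1402.2 and 691.5 against 281.0 to 319.7 (1.27, limma adjusted p = 0.0887). DESeq2 called Tomm40 (1.48, adjusted p = 0.0074), but not without libraries 3 (0.349), and its value was highest in Dox 2. Tomm70a, the most abundant import gene, was at 0.05.

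Genes listed for mitochondrial content were also centred above 0. These 9 genes, regulators such as Ppargc1a included, had medians of 0.243 with Dox and 0.234 with Tc, which do not measure the amount of mitochondria. Vdac1, the outer membrane channel and the most abundant, was at 0.15 and 0.18, while Tfam, which packages mitochondrial DNA, fell by 0.62 with Dox (463.3, 439.4 and 419.7 against 583.9 to 743.1, limma adjusted p = 0.0369; 0.579 without libraries 3), a gene named after its values were seen. Ppargc1a, a regulator of mitochondrial biogenesis, had 108.5, 1463.2 and 604.4 in Dox against 82.3 to 204.3 in control, so that Dox 1 was within the control range (1.80, limma adjusted p = 0.176). The part of mitochondrial content in the members' differences was not tested.

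**Figure D5:**
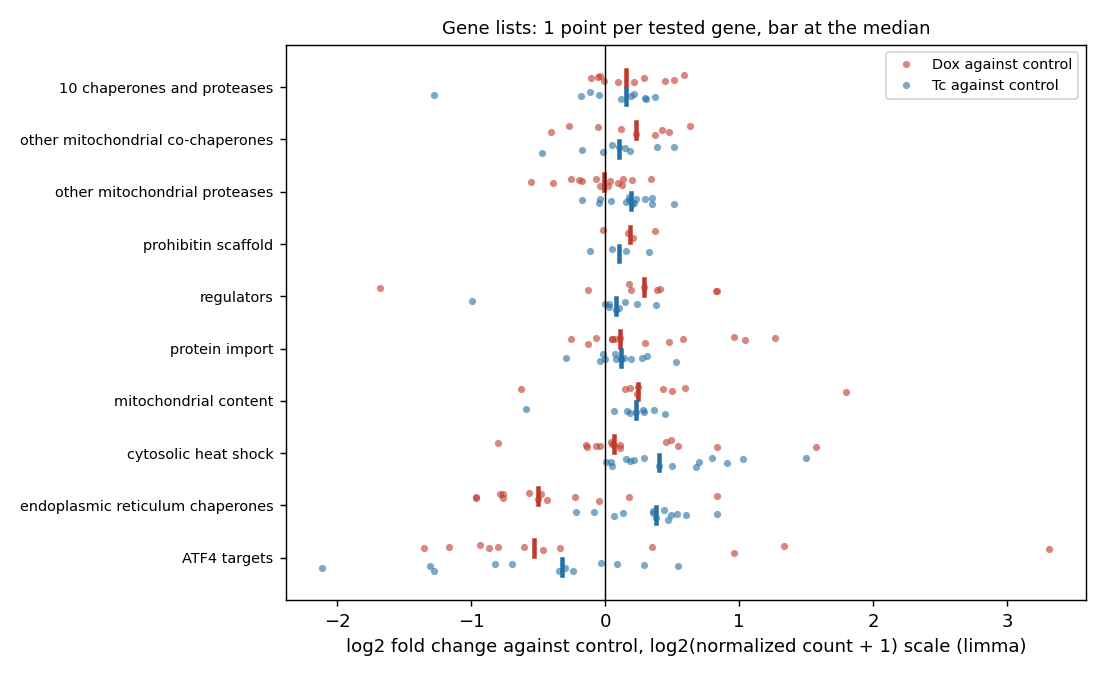
Log2 fold change against control (limma) for each tested gene of the 10 members and of 9 other gene lists, Dox and Tc shown apart, with a bar at each median. The medians of the members are 0.156 and 0.153, and those of the endoplasmic reticulum chaperones lie on opposite sides of 0 (-0.498 with Dox and 0.377 with Tc).

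Chaperones of other compartments had other medians. The cytosolic heat shock list (15 of 16 tested) had medians of 0.065 with Dox and 0.404 with Tc, with all 15 above 0 in Tc and 6 of them higher without overlap, where 15.8% of all genes were. Of these Hsp90aa1 passed with Dox at the adjusted p alone (0.83, limma adjusted p = 0.0338; without libraries 3, 0.85 and 0.569), and Hsp90ab1, the most abundant, was at 0.05 and 0.18. Hspb1, a small heat shock protein, was the farthest from 0 with Dox (1.57, limma adjusted p = 0.217), but on few counts and with overlap. It had 47.4, 8.1 and 19.4 normalized counts in Dox against 3.2 to 12.4 in control. The 13 endoplasmic reticulum chaperones had medians of -0.498 with Dox and 0.377 with Tc, with 4 of 13 lower and 1 higher in Dox (17.1% and 16.1% of all genes), and 3 higher and 0 lower in Tc (15.8% and 14.9%), all without overlap. Limma called 0 of them in either comparison. Calr, the most abundant of them, had 7665.7, 2423.7 and 5757.3 normalized counts in Dox and 8115.8, 16147.1 and 12063.1 in Tc, against 6565.0 to 10764.1 in control, so that both drug groups overlapped control. Pdia4, a disulfide isomerase, had 769.6 to 2353.4 in Dox against 2751.3 to 2850.5 in control (-0.96, limma adjusted p = 0.190).

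Targets of ATF4, most of them enzymes and regulators of amino acid supply, were centred below 0 by median, with 4 above and 8 below 0 with Dox. For some, Dox libraries lay on both sides of control. Ddit4 had 49.5, 5791.8 and 2130.0 normalized counts in Dox against 311.2 to 641.4, and Sesn2 83.2, 840.9 and 311.4 against 96.3 to 118.2. DESeq2 called Sesn2 higher with Dox (1.89, adjusted p = 0.0262) and Chac1 lower (-1.46, 0.0269), and neither without libraries 3 (0.397 and 0.668). Ddit4, Sesn2 and Chac1 were named after their values were seen. Of 12 of 15 tested, limma called Atf3 higher with Dox (20.0, 270.3 and 122.3 normalized counts against 6.4 to 8.9, difference 3.31, adjusted p = 0.038) and Aldh18a1, a proline synthesis enzyme, lower (13.8 to 19.0 against 30.7 to 40.7, -1.17, adjusted p = 0.0427), with a median of -0.532. Without libraries 3 these differences were 3.15 (limma adjusted p = 0.573, DESeq2 0.0193) and -1.08 (0.578 and 0.659), so that limma called neither. With Tc it called 0, the median was -0.323, and Trib3, a pseudokinase, at 60.5 to 75.8 against 141.6 to 201.1 in control, was called in the direct comparison, higher in Dox than in Tc by 1.65 (limma adjusted p = 0.0498). Without libraries 3 the Trib3 difference was 1.86, with an adjusted p of 0.755 by limma and 0.0313 by DESeq2. Against control, Trib3 with Tc was at -1.30 (limma adjusted p = 0.0898). DESeq2 called it lower there (-1.32, adjusted p = 0.00106), but not without libraries 3 (0.911).

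Markers of some other liver cells differed between the groups. The summed level over 4 Kupffer cell markers was 5507.5 to 8999.1 normalized counts in control, 1518.4 to 3616.5 in Dox and 2596.5 to 5214.8 in Tc, and over 4 endothelial markers 3787.4 to 3881.5, 1828.0 to 2136.1 and 2872.9 to 3396.5. With Dox limma called 2 of 4 Kupffer cell markers (Clec4f and Adgre1) and 1 of 4 endothelial ones (Stab2) lower. Over all genes tested it called 5% with Dox (138 higher and 467 lower), the share to set beside each marker count here. The cholangiocyte sum (4 genes) was 39.2 to 52.1 in control, 87.4 to 103.5 in Dox and 45.9 to 64.9 in Tc, with 1 of 2 tested genes, Sox9, called higher in Dox, and the stellate sum (4 genes) 1662.3 to 1729.1, 1018.0 to 1537.4 and 1834.3 to 2035.0. The erythroid sum (4 genes) was 1175 to 4584.5, 646.5 to 2266 and 1071 to 1923.7, with 1 of 3 tested genes, Hba-a1, called lower in Dox. These 3 did not share 1 direction, with 1 of them above 0 both with Dox (0.856) and with Tc (1.201). The sum of 4 neutrophil markers was 29.6 to 284.9, 2.1 to 112.7 and 5.9 to 91.7. Erythroid and neutrophil sums of both drug groups overlapped those of control. Without libraries 3 limma called 0 of these markers. No defining marker was at 0 in all libraries of a group. The part of cell makeup in the members' differences was not tested.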

How the data were processed

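Liver RNA of mice was sequenced in 9 libraries with a stranded kit as single reads of 86 bases. Per the submitters' processing notes and the study's methods, the authors trimmed reads with cutadapt, aligned them to mm10 with STAR 2.7.11ac, counted genes with HTSeq 2.0.5 and normalized with DESeq2 1.42.0. The deposited values are a signal of 1 kind, each library's counts per gene over that library's size factor. Whole reads were recovered from them (100.0% of values whole within 0.05 reads).

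Symbols matched 32158 of 32285 gene IDs. The main test was limma 3.58.1 (R 4.3.3) with a trend on log2(normalized count + 1), all 9 libraries in 1 model, 12100 genes with a mean of at least 10, Benjamini-Hochberg over all. The thresholds were an adjusted p of 0.05 and a fold change of 2. DESeq2 1.42.0 and edgeR 4.0.16 on recovered reads, other pseudocounts, filters, scalings and sets of libraries were alternatives. Depth was 7426136 to 12183041 recovered reads per library.

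Named genes are all 10 members, genes of other lists that were called or else had the highest mean or the largest difference with Dox, and the 3 genes most like Hspd1; others are marked as chosen after their values were seen. The members and lists were chosen with earlier results of these data known. A pairing of libraries by replicate number is not given in the sources used here. Deviations from the group mean of libraries with the same number correlated by 0.287, 0.321 and 0.182 between Dox and Tc. With control they correlated by -0.081 to 0.055. Such deviations sum to 0 within a group, so these values are not independent and do not establish a pairing. A replicate block was fitted as an alternative. Coordinates and shared windows come from GENCODE vM21 and promoters from RefSeq, both on GRCm38, the build of mm10.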

Additional observations from a re-analysis of the deposited data

How the results depend on the processing

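Leaving out libraries 3 ended the 1 result among the members past an adjusted p of 0.05, Hspa9 with Dox. No alternative called a member at both thresholds with Dox, except that the criterion itself, without the fold change limit, passed 1 (4 unadjusted). With Tc, 1 member, Clpx, was called with only the 2 groups compared, with array weights, with DESeq2 and with the replicate block in only the 2 groups (4 passed unadjusted), and leaving out 1 library gave 0 to 1, the 1 without Dox replicate 2. Between Dox and Tc, 1 member, Clpx, was called with array weights and DESeq2, 1 passed unadjusted, and leaving out 1 library gave 0 to 1, the 1 without Dox replicate 1.

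Fitted over all libraries with a replicate block, Clpx differed by 1.27 from Tc in Dox (limma adjusted p of 0.167, or 0.38 with only these groups), so the block changed no call there. Hspa9 with Dox was at a limma adjusted p of 0.068 and 0.189 with the block. Deviations of Dox and control libraries with the same number correlated by -0.053 to 0.055.

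Of the 49 other genes with Dox, 1 was called, beside 5% of all genes. The adjusted p alone passed 2 (8.41% of all genes), the unadjusted p 15 (29.1%), and DESeq2 called 3 (6.18% of the genes it tested). The same total per library gave 2 (247 higher and 325 lower over all genes) and array weights 2 (557 and 998). No libraries 3 gave 0, and the block in only the 2 groups 0. Leaving out 1 library gave 0 to 4 (4 without Dox replicate 1, 2 without Dox replicate 2, 0 without control replicate 2, control replicate 3 or Dox replicate 3). With Tc 4 passed unadjusted, where 11.7% of all genes did. Between Dox and Tc 9 passed unadjusted, where 21.7% of all genes did. Leaving out 1 library gave 0 to 2 there, the 2 without Dox replicate 1, where 719 higher and 647 lower were called over all genes. Scaling to the same total moved the members' median to 0.330 with Dox and 0.242 between Dox and Tc, and that of all genes to 0.174 and 0.157.

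Some uncalled members crossed 0. With the same total per library, Dox differences were 0.124 for Dnaja3, 0.068 for Lonp1, 0.165 for Clpx and 0.134 for Yme1l1, and those between Dox and Tc 0.096 for Hspd1, 0.056 for Trap1 and 0.156 for Clpp. That scaling moved the median of all genes to 0.174 with Dox and 0.157 between Dox and Tc, so all of these lay below the median of all genes. Clpx with Dox was 0.162 by DESeq2, 0.146 by edgeR and 0.222 by DESeq2 without libraries 3. Array weights gave Lonp1 0.050 with Tc and -0.070 between the drugs. Without libraries 3, limma and DESeq2 gave Yme1l1 0.006 and 0.022 with Dox, 0.041 and 0.044 with Tc and -0.036 and -0.022 between the drugs, Afg3l2 -0.016 and -0.003 with Tc, and Clpp 0.016 and 0.028 between the drugs. Leaving out 1 library gave ranges with Dox of -0.092 to 0.322 for Trap1, -0.231 to 0.041 for Lonp1, -0.456 to 0.417 for Clpx and -0.127 to 0.024 for Yme1l1, with Tc of -0.080 to 0.017 for Yme1l1, and between the drugs of -0.305 to 0.108 for Trap1, -0.122 to 0.150 for Lonp1, -0.101 to 0.031 for Clpp and -0.085 to 0.067 for Yme1l1. The causes were not tested. Of 240 member values in each comparison, 219 with Dox, 225 with Tc and 219 between the drugs kept their direction and side of the thresholds. Every member had over 200 normalized counts in every library, and the part of depth in the members' differences was not tested.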
